A study of Rattus norvegicus with 21 samples.

Results

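A set of 70 genes had no read at all in phenylephrine-treated heart muscle cells that carried a control virus, and was read at a CPM of 1 or more in every phenylephrine-treated library that carried added Klf2. They were picked from the 30560 Ensembl gene identifiers of the overexpression count table. CPM is the count divided by the total of its library and multiplied by 1000000. The rule asked for 0 counts in each of 3 control (AdGFP) libraries treated with PE. It also asked for 1 CPM or more in all 3 AdKlf2 libraries treated with PE. Those 6 libraries therefore chose the genes, and the contrast between them is given here as a description with no test.

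The cells were neonatal rat ventricular myocytes (NRVMs), a primary culture of rat heart muscle cells, kept in DMEM with insulin, transferrin and selenium. Phenylephrine (PE), an alpha-adrenergic agonist used to drive hypertrophic growth of cultured heart muscle cells, was given at 100 µM for 36 h in all. For overexpression, cells had PE or no PE for 12 h and then an adenovirus carrying GFP (AdGFP, the control) or Klf2 (AdKlf2) for 24 h, with 3 libraries in each of 4 groups: either virus alone, and either virus after PE. For knockdown, cells had a negative-control siRNA (siNeg) or an siRNA against Klf2 (siKlf2) for 12 h before PE or no PE, with 2 libraries in each of 4 groups: either siRNA alone, and either siRNA before PE. All overexpression groups carried an adenovirus and all knockdown groups an siRNA. No group was untouched, and the labels give no litter or culture for a library. The p-values below therefore rest on library-to-library spread, which may be technical. The libraries taken here as without PE have titles that do not name PE and a PE time of 0 h. The treatment label of every sample names PE.

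KLF2 is a zinc-finger transcription factor of the Krüppel-like family, which binds GC-rich and CACCC-type sequences in promoters and enhancers. It is best known in vascular endothelium, where fluid flow induces it, and in resting T cells and embryonic red cells. The libraries without PE and the knockdown libraries show whether genes found silent with the control virus under PE were also silent elsewhere in the study, and how they differed there between the labelled groups.

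The tables pair no identifier with a gene symbol, and 0 of the 70 identifiers, as of all 30560, matched the RefSeq gene table used here. So it was not analysed here whether the 70 are tissue-restricted genes of other lineages, whether they carry a KLF2 CUT&Tag peak, or what their promoters and proteins hold. The level of Klf2 itself and the markers of heart muscle and of other cells in the culture were not analysed here either, so the labels of the groups are taken as given. Below, 4 genes are given by identifier and the others by their rank from 1 to 70 in mean CPM in AdKlf2 with PE.

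Library totals ran from 32693762 to 76138723 counts in the overexpression table and from 181101876 to 224082309 in the knockdown table. The AdGFP libraries without PE stood apart from the other overexpression libraries at the low end. Genes read at 1 to 5 counts numbered 539 to 776 there. In AdKlf2 they numbered 1852 to 2022, and among the PE-treated libraries 1872 to 1994 under AdGFP and 1728 to 1983 under AdKlf2. Low counts were mostly even numbers, so a fragment was probably counted at both mates. A zero is therefore taken here to allow up to 6 counts (3 fragments), which is 0.151 to 0.181 CPM in the AdGFP libraries with PE and 0.0984 to 0.112 CPM in those without. These limits cover counting error only. In these bulk libraries fewer cells of a type and less RNA per cell cannot be told apart.

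In AdKlf2 with PE, 1 gene stood far above the other members. ENSRNOG00000009105 had 34858, 13731 and 29862 counts in the 3 libraries, or 458, 400 and 465 CPM (441 ± 36.0, SD, n = 3). It made up 53.3% of the summed CPM of the 70 genes. Against the limit of a zero in AdGFP with PE, its level was at least 2440-fold higher. The next gene, ENSRNOG00000010573, had 2934, 1414 and 2477 counts, or 38.5, 41.2 and 38.6 CPM (39.4 ± 1.49, SD, n = 3), at least 218-fold above that limit. All 3 AdKlf2 libraries with PE were close to each other for both genes, and the lower raw counts of replicate 2 went with its smaller total.

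The other members were low. The median over the 70 of the mean CPM in AdKlf2 with PE was 2.7 and the lowest was 1.15, at least 6.35-fold over the limit of a zero. By mean CPM, 1 gene was above 100, 8 lay between 10 and 100, 24 between 3 and 10, 19 between 2 and 3 and 18 between 1 and 2. The summed CPM of the set was 843, 783 and 857 in the 3 libraries, and 385, 383 and 392 without the top gene, so the 3 libraries carried the set at about the same level. Within the group, the coefficient of variation of a member had a median of 11.8% (range 0.681% to 42.1%). Over the 10428 genes that had at least 1 CPM in each of these libraries and a mean of up to 100 CPM, the median was 6.16%. Those genes were not matched to the members by level, so the 2 medians do not show that members vary more at a given level. The highest library was at most 2.24 times the lowest for any member, with a median of 1.25 times.

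**Figure D1:**
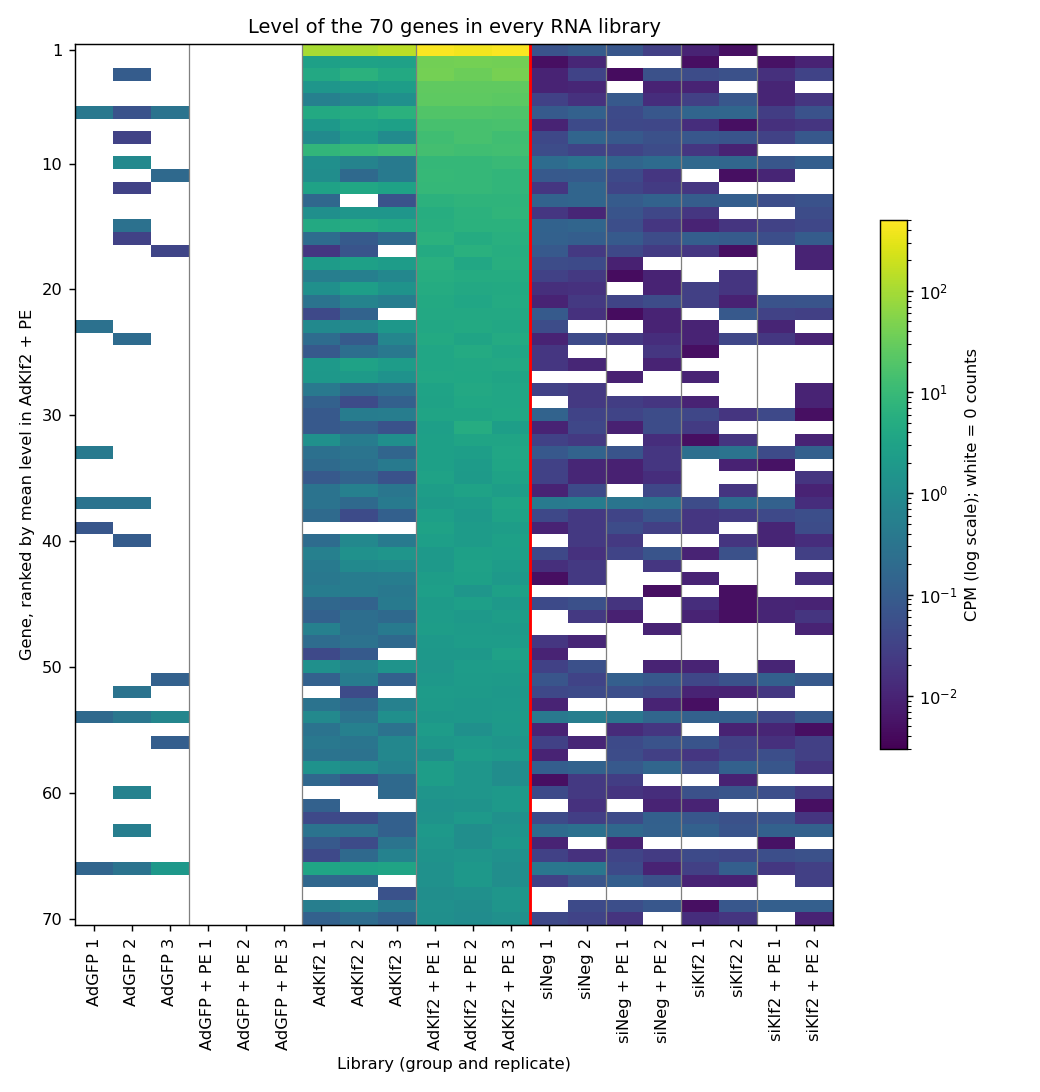
CPM of each of the 70 genes (vertical, ranked by mean in AdKlf2 with PE) in each of the 20 RNA libraries (horizontal), on a log colour scale with white for 0 counts; a red line parts the overexpression from the knockdown table, which were normalized separately. AdGFP with PE is white and AdKlf2 with PE coloured throughout by the rule, AdKlf2 without PE is filled for most genes at a lower level, AdGFP without PE holds 29 values above 0 of 210, and no value in the knockdown libraries exceeds 0.519 CPM.

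The 1 CPM and 0-count limits cut through a continuous range of genes. The 2 members nearest the CPM limit had 1.05 and 1.09 CPM in their lowest AdKlf2 library with PE (means 1.15 and 1.74). The 2 genes nearest outside it had 0.989 and 0.959 CPM (means 1.36 and 1.05), and 9 genes in all lay between 0.8 and 1 CPM. At the other edge, 93 genes had at least 1 CPM in every AdKlf2 library with PE and counts in exactly 1 AdGFP library with PE. These counts were 1 to 20, with a median of 4. The 93 had a median mean of 4.56 CPM and a highest of 57.3 CPM in AdKlf2 with PE, so the median of genes just short of a full zero was above that of the members. Which library held the counts varied, with 38 genes in replicate 1, 24 in replicate 2 and 31 in replicate 3.

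Of the 30560 identifiers, 11490 were unread in AdGFP with PE, and 9806 of these were at 0 in every AdKlf2 library with PE too. A further 1684 had a count in at least 1 AdKlf2 library with PE, and 412 had a count in all 3. The 70 members were 0.609% of the 11490. The same rule was then counted for every ordered pair of the 4 overexpression groups. From AdGFP with PE at 0 to AdKlf2 with PE on, it gave the 70 members, and in the opposite direction it gave 1 gene. From AdGFP without PE at 0 to AdKlf2 with PE on, it gave 118 genes, 48 of them members. From AdGFP at 0 to AdKlf2 on, both without PE, it gave 28 genes, 10 of them members. Between AdGFP without and with PE it gave 0 genes in either direction. From AdKlf2 at 0 to AdKlf2 with PE on, it gave 2 genes, 1 of them a member. These counts share libraries with the rule and with each other, and the groups differ in depth, so they are given as a description. AdGFP without PE also had fewer genes at low counts than the other groups, and what this does to its zeros was not tested.

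**Figure D2:**
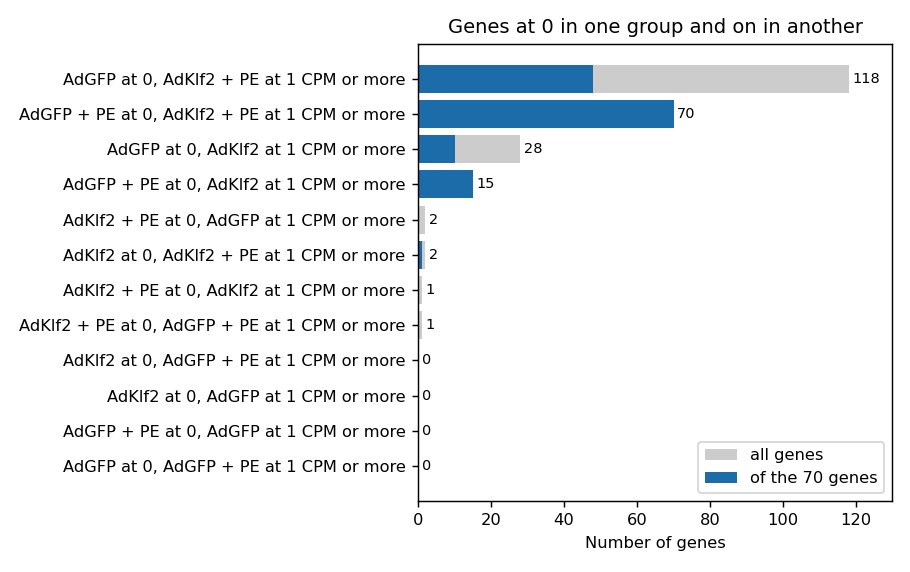
Number of genes (horizontal axis) with 0 counts in all 3 libraries of one group and at least 1 CPM in all 3 libraries of another, for the 12 ordered pairs of overexpression groups; grey bars count all genes and blue bars the members. The 4 pairs that go from an AdGFP group to an AdKlf2 group give 118, 70, 28 and 15 genes, and the other 8 pairs give 0 to 2.

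Without PE, added Klf2 was accompanied by reads for nearly all of the 70 genes, at lower levels than with PE. A count was seen in each of the 3 AdKlf2 libraries for 60 members, in 1 or 2 of them for 9 and in none for 1. At least 1 CPM in each library, the level the rule had asked for with PE, was reached by 15 members. Another 11 reached it in some of the libraries and 44 in none. The mean was 1 CPM or more for 20 members, 0.1 to 1 CPM for 37 and under 0.1 CPM for 13, and its median over the 70 was 0.395 CPM. The summed CPM of the set was 168, 188 and 216.

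ENSRNOG00000009105 was again the highest, with 4989, 5009 and 4645 counts in AdKlf2 without PE, or 106, 116 and 142 CPM (121 ± 18.7, SD, n = 3). AdGFP without PE had 0, 0 and 0 counts, so the level in AdKlf2 was at least 1080-fold higher (edgeR's quasi-likelihood test, adjusted p = 1.7e-14). ENSRNOG00000010573 had 132, 134 and 94 counts in AdKlf2, or 2.81, 3.09 and 2.88 CPM, and 0 in every AdGFP library. That was at least 26.1-fold higher (edgeR's quasi-likelihood test, adjusted p = 5.86e-11). For both genes every AdKlf2 library lay far above every AdGFP library. The fit behind these p-values and those of the next paragraph also held the PE-treated libraries that chose the genes. With only AdGFP and AdKlf2 without PE in the fit, edgeR's quasi-likelihood test gave adjusted p values of 1.25e-11 for the first gene and 4.55e-06 for the second.

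Other members showed the same order at lower levels. The gene of rank 9 had 390, 408 and 380 counts in AdKlf2, or 8.29, 9.41 and 11.6 CPM, and 0 counts in all AdGFP libraries (edgeR adjusted p = 3.6e-11). Rank 4 had 77, 84 and 80 counts in AdKlf2 and 0 in AdGFP (edgeR adjusted p = 1.56e-09). Rank 6 was not silent in AdGFP without PE, where it had 20, 4 and 16 counts against 210, 212 and 210 in AdKlf2. The groups did not overlap (4.48 on the log2 scale, SE 0.33, edgeR adjusted p = 1.23e-08).

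Over all 70 genes, edgeR's quasi-likelihood test called 57 higher in AdKlf2 than in AdGFP without PE at an adjusted p under 0.05, and 0 lower. All 70 entered the test, but 32 of them passed the filter on low counts only through AdKlf2 with PE, the group that chose them, so this count is a description. Of all 16153 genes tested, 20.0% were called higher, and of the 121 other tested genes at 0 in AdGFP with PE, 38.0% were. The median log2 fold change over all genes tested was 0.0. Of the 57, 46 had 0 counts in every AdGFP library and 11 had AdGFP counts. When the fit held only the AdGFP and AdKlf2 libraries without PE, 39 members were tested and 34 were called, against 16.3% of all 15431 genes in that fit and 28.0% of the 25 other genes at 0 in AdGFP with PE. Those 39 passed mostly through AdKlf2, since 35 had 10 or more counts in every AdKlf2 library and 1 in every AdGFP library. With no regard to a test, every AdKlf2 library was above every AdGFP library in 53 of the 70 genes, and the groups overlapped in 17. The same order was found in 21.0% of all genes tested and in 33.1% of the 121 other genes at 0 in AdGFP with PE. Leaving out any 1 of these 6 libraries from the fit of all groups left 53 to 59 called, although all 3 AdGFP libraries stood apart at low counts and what this does to the calls was not tested.

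The 13 members not called had AdKlf2 means of 0 to 0.781 CPM, and 11 of them had counts in an AdGFP library. The gene of rank 10 had 0, 52 and 0 counts in AdGFP and 56, 28 and 14 in AdKlf2, so the groups overlapped (log2 fold change 1.41, SE 0.838, edgeR adjusted p = 0.218). Rank 39 had no count in any AdKlf2 library without PE, 4, 0 and 0 counts in AdGFP, and 234, 77 and 156 counts in AdKlf2 with PE. It was the only member read in AdKlf2 solely with PE.

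AdGFP without PE was thus not fully silent for the set. There, 48 of the 70 members were at 0 in all 3 libraries, 18 had counts in 1 library, 1 in 2 libraries and 3 in all 3. Only 29 of the 210 values were above 0, and these ran from 2 to 100 counts with a median of 14. A member with counts in an AdGFP library was most often at 0 in another, as for 19 of the 22. The summed CPM of the set was 1.75, 4.07 and 3.32. The one member to reach 1 CPM in an AdGFP library was the gene of rank 66, at 1.81 CPM.

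Every AdKlf2 library with PE was above every AdKlf2 library without PE in 68 of the 70 genes. The rule asked for 1 CPM or more in each library with PE, which favours this order, so it is described and not tested. Over all 12715 genes at 1 CPM or more in each AdKlf2 library with PE, 34.2% had the same order. Over the 69 genes with a count without PE, the ratio of the mean CPM with PE to that without had a median of 8.56 and ran from 0.436 to 179. It was under 2 in 6 genes, from 2 to 10 in 34, from 10 to 50 in 24 and 50 or more in 5. The largest ratios rest on few counts without PE. At the ratio of 179, rank 17 had 1, 3 and 0 counts without PE and 360, 209 and 344 with it. Among the genes with ample counts in both, ENSRNOG00000009105 had a ratio of 3.64 and ENSRNOG00000010573 one of 13.5. Rank 9 had 13.7, 12.4 and 13.2 CPM with PE, 1.34 times its mean without PE.

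The gene of rank 66 ran the other way. It had 162, 130 and 112 counts in AdKlf2 without PE, or 3.45, 3.0 and 3.43 CPM, and 98, 64 and 74 counts, or 1.29, 1.86 and 1.15 CPM, with PE. Every library with PE lay below every library without it. AdGFP without PE had 8, 18 and 100 counts of this gene, so its AdGFP libraries spread widely and lay below those of AdKlf2 (log2 fold change 2.17, SE 0.663, edgeR adjusted p = 0.0175).

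The 15 members with at least 1 CPM in each AdKlf2 library without PE included 7 of the 10 highest with PE. Their mean in AdKlf2 without PE ran from 1.49 to 121 CPM (median 2.92) and with PE from 1.43 to 441 CPM (median 8.77). The ratio between the 2 ran from 0.436 to 13.5. Of the 15, 10 were at 0 in all AdGFP libraries without PE. Across the 70 genes, the mean CPM in AdKlf2 without and with PE had a Spearman correlation of 0.502, and 0.48 without the top gene. This is across genes of libraries made in 1 experiment, and the rule set a lower limit on one axis.

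**Figure D3:**
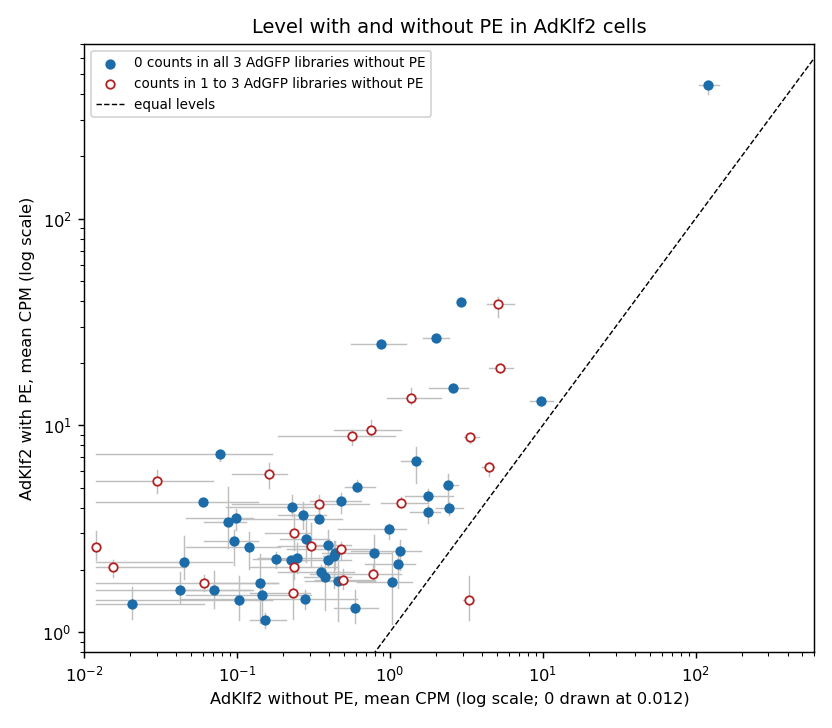
Mean CPM in AdKlf2 without PE (horizontal, log scale) against mean CPM in AdKlf2 with PE (vertical, log scale) for the 70 genes, with grey lines from the lowest to the highest of the 3 libraries and a dashed line of equal levels. All genes but that of rank 66, at 3.29 and 1.43 CPM, lie above the line; filled points are the 48 genes at 0 in all AdGFP libraries without PE and open points the 22 with counts there.

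In the knockdown table, where no Klf2 was added, the same genes were barely read. The highest CPM of any member in any of the 8 libraries was 0.519, and 52 of the 70 stayed under 0.1 CPM in every library. At this depth they were nevertheless not at 0. A count in some library was found for 69 members, in every library for 24, in both siNeg libraries for 54 and in both siNeg libraries with PE for 43. The median over members of the mean CPM was 0.0261 in siNeg, 0.00985 in siKlf2, 0.0252 in siNeg with PE and 0.00995 in siKlf2 with PE. So the zeros with the control virus and PE were read in libraries several times shallower than those that show low counts here.

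The 2 tables were normalized separately, and the control cells differ in carrying a virus or an siRNA, so their levels are set side by side only. If the AdGFP libraries with PE held the 70 genes at the CPM of siNeg with PE, their totals would give 305 counts over the 3 libraries, with a median of 2.75 and at most 32.8 for a single member. In fact they hold 0, as the rule asks. Zeros were common among genes of such levels: of the 7622 genes above 0 in siNeg with PE and up to 0.301 CPM, the highest level of a member there, 44.0% were at 0 in AdGFP with PE.

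The summed CPM of the set was lower in every siKlf2 library than in every siNeg library under the same condition. Without PE it was 3.84 and 4.36 in siNeg and 2.07 and 2.48 in siKlf2. With PE it was 2.89 and 2.71 in siNeg and 1.55 and 1.77 in siKlf2. The number of members with a count was 61 and 59 in siNeg, 51 and 46 in siKlf2, 51 and 56 in siNeg with PE and 40 and 47 in siKlf2 with PE. These sums use library totals, and those of other low genes fell as well. Over the 8916 other genes within the members' range of levels, the sum was 468 and 466 CPM in siNeg and 349 and 332 in siKlf2, a ratio of 0.729, against 0.555 for the members. With PE the ratios were 0.701 for the other genes and 0.593 for the members. The genes of ranks 54, 37 and 66, the 3 highest in siNeg, carried much of the difference. Without them the members' ratio was 0.685 without PE and 0.675 with PE, close to that of the other genes. These 3 genes were picked by their level in siNeg, which favours a higher ratio without them. No genes were left out of the other set in the same way, so the comparison is not like for like. With TMM-scaled totals the ratio of all 70 members was 0.638 without PE and 0.714 with PE, and that of the other genes was not computed.

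Gene by gene, the mean without PE was lower in siKlf2 for 53 members, higher for 15 and equal for 2. Both siKlf2 libraries lay below both siNeg libraries for 29 members (41.4%), against 27.1% of the 8985 genes of the same range of levels. Both lay above for 8 (11.4%), against 7.57%. With PE, the mean was lower in siKlf2 for 48, higher for 19 and equal for 3, and both libraries lay below for 21 (30.0%, against 27.2%) and above for 7 (against 6.72%). So with PE the share of members below was near that of other genes of like level. The means use library totals, and the share of other genes with a lower mean was not counted. In edgeR's fits, which scale libraries by TMM factors, the log2 fold change of the 27 tested members was below 0 for 15 and above 0 for 12. This split was the same without and with PE.

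Of the 70 genes, 27 had enough counts to be tested for knockdown. Without PE, edgeR's quasi-likelihood test called 7 of them lower in siKlf2 and 1 higher at an adjusted p under 0.05. The 7 were 25.9% of those tested, while 26.8% of all 18173 genes tested were called lower, as were 12.0% of the 3253 tested genes with a mean up to that of the highest tested member. Called higher were 27.2% of all genes and 3.14% of these low genes. The median log2 fold change was -0.11 over the 27, -0.02 over all genes and -0.26 over the low genes. With PE, 3 were called lower, or 11.1%, against 28.2% of all genes and 10.5% of the low genes. None was called higher, against 26.1% and 3.54%, and the medians were -0.05, -0.04 and -0.29. Without PE the share called lower was thus near that of all genes and above that of the low genes, and with PE it was below that of all genes and near that of the low genes. The interaction of knockdown and PE was called for 1 of the 27, against 14.4% of all genes tested.

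ENSRNOG00000009105 was among the genes called lower in both comparisons. It had 13 and 17 counts in siNeg and 2 and 1 in siKlf2 (log2 fold change -3.14, SE 0.86, edgeR adjusted p = 0.0106). It passed no longer when siNeg replicate 2 was left out (edgeR adjusted p = 0.0625), nor when siKlf2 replicate 2 was (edgeR adjusted p = 0.0818). With PE it had 17 and 6 counts in siNeg and 0 in both siKlf2 libraries, at least 1.65-fold lower (edgeR adjusted p = 0.00574). This bound rests on siNeg replicate 1, since the 6 counts of replicate 2 are no more than a zero is taken to allow. So the gene with the highest level under added Klf2 was also read less in siKlf2. Its siNeg level was 0.0796 ± 0.0202 CPM (SD, n = 2), far under its 121 CPM in AdKlf2 without PE. With all counts halved, as if each fragment were counted once, it had too few counts to be tested in either comparison. With only siNeg and siKlf2 with PE in the fit, it was not tested either. ENSRNOG00000010573 had 0 to 2 counts in each of the 8 libraries and could not be tested in any fit with a filter.

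ENSRNOG00000034031 (rank 54) and ENSRNOG00000005850 (rank 37), chosen by their knockdown values, had the highest siNeg levels of the set and were called lower in both comparisons. ENSRNOG00000034031 had 76 and 94 counts in siNeg and 25 and 24 in siKlf2 (log2 fold change -1.71, SE 0.41, edgeR adjusted p = 0.00429). With PE it had 74 and 33 counts in siNeg and 7 and 18 in siKlf2 (-1.69, SE 0.47, edgeR adjusted p = 0.00987). The groups did not overlap in either comparison. Leaving out replicate 1 with PE ended the latter call, at an edgeR adjusted p of 0.0987 for siNeg and of 0.0914 for siKlf2.

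ENSRNOG00000005850 had 83 and 86 counts in siNeg and 10 and 42 in siKlf2 (log2 fold change -1.61, SE 0.606, edgeR adjusted p = 0.0432). With PE it had 72 and 57 counts in siNeg and 24 and 3 in siKlf2 (-1.84, SE 0.683, edgeR adjusted p = 0.0398). The siKlf2 replicates differed by several fold both times, and each call was lost in 3 of the 4 fits that leave out a library, at adjusted p values of up to 0.254 and 0.264 in edgeR, and under DESeq2 (adjusted p = 0.217 and 0.165).

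Neither of these 2 genes was called for added Klf2 without PE. ENSRNOG00000034031 had 10, 22 and 42 counts in AdGFP and 40, 13 and 39 in AdKlf2 (log2 fold change 0.86, SE 0.633, edgeR adjusted p = 0.328). ENSRNOG00000005850 had 16, 18 and 0 counts in AdGFP and 14, 8 and 14 in AdKlf2 (0.63, SE 0.804, edgeR adjusted p = 0.602). In AdKlf2 with PE they had 135, 64 and 137 counts (1.92 ± 0.188 CPM, SD, n = 3) and 159, 80 and 217 counts (2.6 ± 0.688 CPM). Both were thus read in every group of the study but AdGFP with PE.

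Of the other genes called without PE, rank 11 fell from 17 and 16 counts in siNeg to 0 and 1 in siKlf2 (log2 fold change -4.65, SE 1.07, edgeR adjusted p = 0.00331). Rank 15 fell from 26 and 28 to 2 and 4 (-3.03, SE 0.64, edgeR adjusted p = 0.00187). The siKlf2 counts of both, like those of ENSRNOG00000009105 without PE, are no more than a zero is taken to allow, so these fold changes are poor measures of size. Ranks 11 and 15 were also called higher in AdKlf2 without PE (edgeR adjusted p = 0.00492 and 3.26e-06), the former not without AdKlf2 replicate 1 (edgeR adjusted p = 0.06). Rank 11 passed the filter on low counts only through AdKlf2 with PE, the group that chose it, so its value there is a description. Rank 66, also called higher in AdKlf2 without PE, fell from 71 and 60 to 6 and 24 (-2.02, SE 0.553, edgeR adjusted p = 0.00906). This call was lost without siKlf2 replicate 1 (edgeR adjusted p = 0.0803). Rank 63 fell from 40 and 46 to 25 and 14 (-1.05, SE 0.386, edgeR adjusted p = 0.0385). The single gene called higher was rank 33, with 16 and 25 counts in siNeg and 50 and 59 in siKlf2 (1.49, SE 0.497, edgeR adjusted p = 0.0257). Of the 8 calls, those of ranks 11, 15 and 54 held whichever library was left out. Those of ranks 1 and 66 were each lost without at least 1 library. Those of ranks 33, 37 and 63 were lost in most of these fits. Each such fit leaves a single library in a group.

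**Figure D4:**
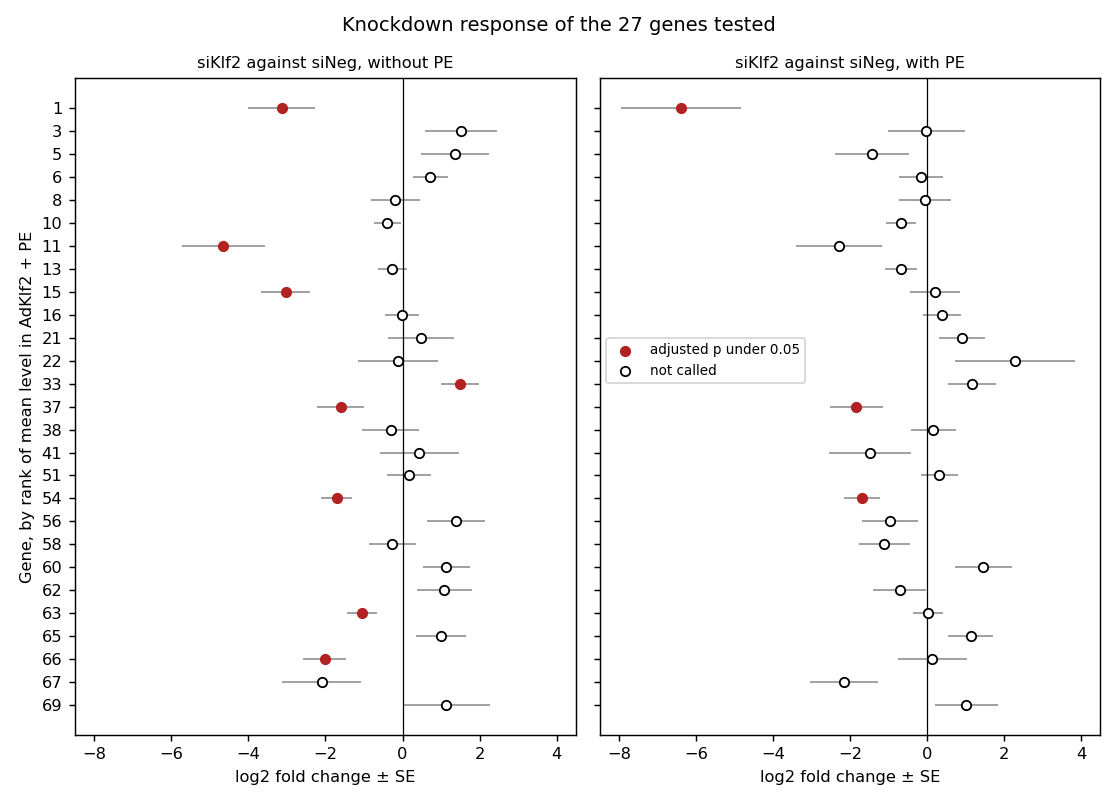
Log2 fold change with its SE of siKlf2 against siNeg (horizontal) for the 27 genes tested, by rank (vertical), without PE on the left and with PE on the right; filled points have an adjusted p under 0.05. Called genes number 8 on the left, 7 of them lower, and 3 on the right, all lower. The fitted value of rank 1 on the right depends on the fit's treatment of 2 zero counts and is no measure of size. On the left, the siKlf2 counts of ranks 1, 11 and 15 are no more than the 6 that a zero is taken to allow, so their sizes are uncertain.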

How the data were processed

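The values used are raw counts, deposited for each Ensembl identifier, which the authors made with Trim Galore, STAR and featureCounts on mRatBN7.2, per the submitters' processing notes, with no versions given. Per the labels' protocols, 400 ng of RNA went into each library. The peak list was not used here, since no gene positions on its build were at hand.

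CPM was the count divided by the column total, without TMM scaling. Tests used edgeR 4.0.16 in R 4.3.3 on all genes of a table: filterByExpr (minimum count 10, minimum total 15) left 16153 genes in the overexpression and 18173 in the knockdown table, with TMM factors, all 4 groups in 1 quasi-likelihood fit, two-sided tests and Benjamini-Hochberg adjustment over all genes tested. DESeq2 1.42.0 was an alternative. The procedure was run on simulated counts with a fixed spread and set fold changes. That setting does not match genes almost unread in a group, so no conclusion on the calls of the members is drawn from it. A bound on a fold change set the mean CPM of the higher group against 6 counts in a library of the other group. That library was the one with the smallest total, in AdGFP for overexpression and in siKlf2 with PE for knockdown. The error of the higher group's mean did not enter the bound. Tables and figures were made in Python 3.11.15.

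The members, the tests and the gene lists were chosen with earlier results of these data known. Genes were to be named by level in AdKlf2 with PE, by level in AdKlf2 without PE and by calls in the tests; without symbols, only 4 identifiers are given, and the parts of the rule on gene lists, peaks and Klf2 could not be applied. Samples with the same replicate number did not deviate together (correlations of -0.0203 to 0.0446 in the overexpression table and -0.0432 to 0.0403 in the knockdown table), so the numbers were not taken to pair them.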

Additional observations from a re-analysis of the deposited data

Results flagged for a closer look

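The gene of rank 15 was called, in edgeR's fit of all groups, for a difference in its knockdown response between cells without and with PE. It had 26 and 28 counts in siNeg and 2 and 4 in siKlf2 without PE, but 12 and 4 in siNeg and 6 and 8 in siKlf2 with PE. Counts of 2, 4 and 6 are no more than a zero is taken to allow, so the size of the difference is uncertain. Within siNeg the gene was lower with PE (log2 fold change -1.82, SE 0.54, edgeR's quasi-likelihood test, adjusted p = 0.0155). The difference between the 2 log2 fold changes was 3.23 (SE 0.94, edgeR's quasi-likelihood test of the interaction, adjusted p = 0.0424). Of 27 members tested, edgeR called this 1, with 2 at an unadjusted p under 0.05, while 14.4% of all 18173 genes tested were called. DESeq2 called 0, with 1 at an unadjusted p under 0.05, and gave no adjusted p for this gene. Leaving out single libraries gave 2.72 to 4.1, with edgeR adjusted p values of 0.0258 to 0.156, and the call held only without siNeg replicate 1 with PE. It was also lost with a replicate block (edgeR adjusted p = 0.0573).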

How the results depend on the processing

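The number of members depends on the rule's limits. It was 45 at 2 CPM, 117 at 0.5 CPM, 123 with up to 3 counts allowed in each AdGFP library with PE, and 75 to 108 when 1 library was left out, with 108 without AdGFP replicate 1 with PE. With TMM-scaled totals it was 73. The 15 members on in AdKlf2 without PE became 9 at 2 CPM. For AdKlf2 against AdGFP without PE, the 57 calls became 34 of 39 tested with only those groups in the fit, since fewer members then passed the filter. For siKlf2 without PE, fewer than 8 calls were made when any 1 library was left out, and the call of a higher level was lost in most of these fits. More than 27 members then passed the filter on low counts, so those calls are not all among the 27 genes tested in the main fit or a part of the 8. With PE, the 3 calls became 5 with no filter and 5 with library totals in place of TMM factors. The cause was not tested. With counts halved, 13 members were tested in each knockdown comparison, and 6 were called without PE and 2 with PE. Library totals moved the median log2 fold change of all genes to -0.22 without PE and -0.3 with PE, and that of the tested members to -0.31 in both. Same-numbered samples share only a number: with a replicate block the 3 counts of calls were 56, 8 and 3. No value changed sign. Of the alternatives for the counts, 40 stayed within 1.5 times and 11 did not. Peaks near genes and promoter features were not run. The lone library left when 1 of 2 is dropped is assumed to vary like the other groups.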
